A study of Mus musculus with 12 samples.

Results

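The data describe 33 genes that encode the Sm core of spliceosomal particles, the proteins of the U2 small nuclear ribonucleoprotein particle (U2 snRNP) with its helpers at the branch site, and the survival motor neuron (SMN) complex. They were found by gene symbol among the 23352 rows of the deposited expression table, also where a row joined several symbols. They filled 35 rows, called entries here, because Snrpn occupies 3: Snrpn;Snurf, Snurf;Snrpn and Snrpn. All 35 entries passed the filter for testing, at least 1 FPKM (fragments scaled by transcript length and by the number of reads mapped in the library) in at least 3 libraries.

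Messenger RNA was measured in hippocampus of C57BL/6J mice in 12 libraries, 3 for each of 4 groups: N40K transgenic mice and their wild-type littermates without the transgene, each at 3 and at 12 months of age. N40K is a truncated form of U1-70K, the Snrnp70 product of the U1 snRNP. The transgenic mice belonged to 1 line, in which a modified CaMKIIa promoter drives the transgene in neurons. The labels do not say that the 3 libraries of a group came from separate animals. The p-values therefore measure the spread between these libraries, which may be technical. In each 3-month group the libraries differed in the sex-linked genes Xist and Ddx3y (values below), so they did not all come from 1 animal.

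The Sm proteins B, D1, D2, D3, E, F and G form a ring around the small nuclear RNAs of the spliceosome, and the SMN complex loads that ring onto the RNA in the cytoplasm. In neurons SmN, made from the imprinted Snrpn gene, takes much of the place of SmB. The U2 snRNP then pairs with the branch site of an intron, helped by SF1 and the U2AF heterodimer, which mark the branch site and the end of the intron before U2 arrives, and its SF3A and SF3B subcomplexes hold it there. SMN is best known for spinal muscular atrophy, which follows its loss.

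The genotypes were separated by Snrnp70, the gene behind the transgene, in every library. It ran from 161 to 179 FPKM in 3-month wild-type libraries and from 377 to 401 FPKM in N40K libraries of that age, and from 95.96 to 138 against 259 to 320.0 FPKM at 12 months. Depth could only be estimated, and lay between 39.9 and 97.2 M reads per library. Neuronal markers fixed as a list summed to between 2661 and 3228 FPKM in every library. Xist, transcribed from the inactive X chromosome, was at 13.5 to 17.3 FPKM in 3 young libraries and at 0.112 FPKM or less elsewhere. The 3 were wild-type replicates 2 and 3 and N40K replicate 3. In them Ddx3y, a Y chromosome gene, was at 0.0647 FPKM or less, against 13.9 FPKM or more elsewhere. The labels give no sex, but by these genes those 3 libraries were female and the others male. The 3-month comparison thus mixed the sexes unevenly, and all 12-month libraries were male. The choroid plexus marker Ttr ran from 25.2 to 5813 FPKM.

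At both ages Sf3b3, Sf1 and Snrpa1 rose in N40K libraries and Snrpn fell. The promoter sequences of these 4 genes are shown because they alone passed the test at each age. Each is the 250 bases before a RefSeq start on GRCm38.p6, printed in the direction of transcription. The deposited values came from another build, mm9, so these coordinates belong to RefSeq only. Sf3b3 lies at chr8:110846804-110847053 (minus strand), Sf1 at chr19:6363440-6363689 (plus strand), Snrpa1 at chr7:66060086-66060335 (plus strand), and the start given to both Snurf and Snrpn at chr7:60005200-60005449 (minus strand). Capitals mark matches, on either strand, to the GC box GGGCGG, the CCAAT box, the TATA box written as TATAAA, the ETS-type site CCGGAA or the E-box CACGTG.
Sf3b3: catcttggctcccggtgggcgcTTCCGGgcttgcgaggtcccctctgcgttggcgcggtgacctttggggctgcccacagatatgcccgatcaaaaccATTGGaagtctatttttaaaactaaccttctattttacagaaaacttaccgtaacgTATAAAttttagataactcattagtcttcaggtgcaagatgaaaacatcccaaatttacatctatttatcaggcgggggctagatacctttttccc
Sf1: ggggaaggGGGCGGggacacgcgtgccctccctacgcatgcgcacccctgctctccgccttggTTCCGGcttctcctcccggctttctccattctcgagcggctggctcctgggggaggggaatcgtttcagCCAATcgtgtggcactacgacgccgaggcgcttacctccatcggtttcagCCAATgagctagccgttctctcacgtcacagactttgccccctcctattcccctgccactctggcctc
Snrpa1: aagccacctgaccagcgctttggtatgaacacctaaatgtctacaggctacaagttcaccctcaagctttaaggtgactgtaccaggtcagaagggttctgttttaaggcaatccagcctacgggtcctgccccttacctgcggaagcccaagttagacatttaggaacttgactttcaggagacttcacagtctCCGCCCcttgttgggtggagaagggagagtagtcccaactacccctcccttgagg
Snurf and Snrpn: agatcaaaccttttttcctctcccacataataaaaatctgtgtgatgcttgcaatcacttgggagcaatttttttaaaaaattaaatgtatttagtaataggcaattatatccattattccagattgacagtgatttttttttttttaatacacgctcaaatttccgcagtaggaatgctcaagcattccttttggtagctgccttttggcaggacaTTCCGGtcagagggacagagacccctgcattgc

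CCGGAA was the motif most of the 4 stretches held. It occurred in those of Sf3b3, Sf1 and Snurf/Snrpn, against 12.0% of the 32817 RefSeq promoters of the same length. The 4 genes were chosen by their calls and the motif for its count here, and enrichment was not tested. Sf3b3 and Sf1 rose in N40K libraries, whereas Snrpn fell. Sf1 and Snrpa1 each held GGGCGG once, found in 32.7% of promoters, while CCAAT (33.8%) occurred in those of Sf1, at 2 places, and Sf3b3. TATAAA (12.4%) was seen in Sf3b3 alone, and CACGTG (6.0%) in none of the 4. CpG dinucleotides numbered 19 in Sf1, 11 in Sf3b3, 4 in Snrpa1 and 3 in Snurf/Snrpn, against a median of 6. RefSeq lists 4 starts for Snrpn, and gene-level values do not tell which was used. Of the 33 genes, 26 had an entry in the promoter table.

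Levels before any comparison differed widely among the entries. FPKM is per length, so genes can be set side by side, but only roughly, since the annotation used is not given. For the Snrpn entries the split of reads between rows is uncertain as well. In 3-month wild-type libraries the Snrpn;Snurf entry averaged 835 ± 53.98 FPKM (SD, n = 3), far above Sf3b2, the next, at 90.1 ± 1.26. Snrpd2 (80.6 ± 2.96), Snrpd3 (77.3 ± 1.38), U2af2 (74.6 ± 1.00), Snrpn (74.4 ± 5.41) and Puf60 (74.3 ± 0.19) followed, and U2af2, Snrpn and Puf60 lay within their spread of each other. The lowest levels belonged to the SMN complex, with Gemin5 at 4.29 ± 0.28 and Gemin6 at 3.45 ± 0.18 FPKM, whereas Strap of the same complex reached 48.1 ± 1.61 FPKM. The median level over 12 libraries was 22.5 FPKM for the 35 entries and 9.18 FPKM for all genes tested. Their longest annotated transcripts were shorter, with a median of 1977 bases against 3337.5.

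**Figure D1:**
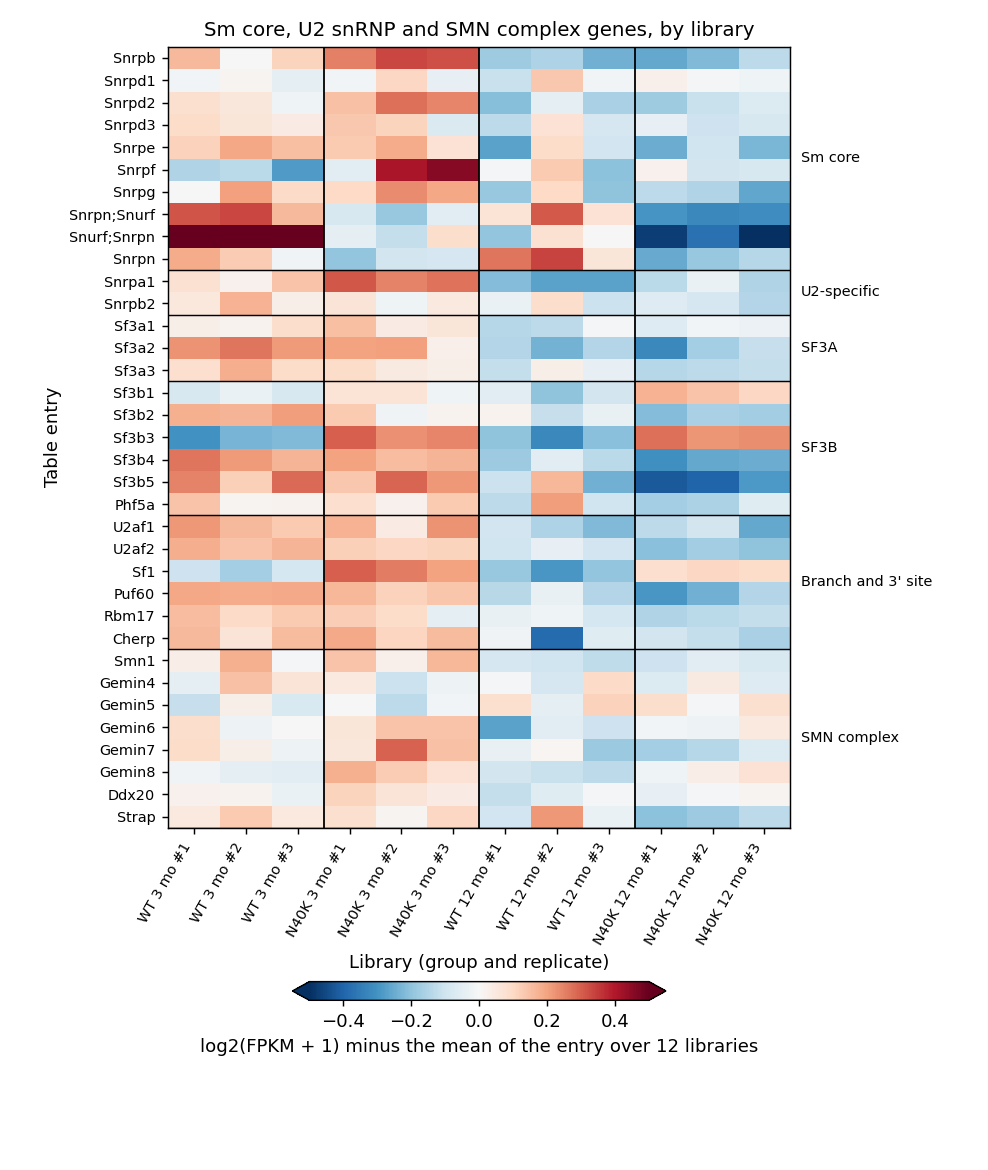
Level of each of the 35 entries (rows, by role) in each of the 12 libraries (columns, by group), as log2(FPKM + 1) minus the mean of the entry. Colours end at 0.5 either way, so Snurf;Snrpn lies past the scale in 3-month wild type and in replicate 3 of 12-month N40K. Sf3b3 and Sf1 are red and the Snrpn entries blue in N40K relative to wild type of the same age.

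The first comparison asked how neuronal N40K altered these genes at 3 months. Of the 35 entries 6 rose and 2 fell, by limma on log2(FPKM + 1) with Benjamini-Hochberg adjustment over 13945 genes at a threshold of 0.05. These 8 calls were 22.9% of the entries, against 11.4% of all genes, with 7.95% higher and 3.49% lower. The rises were Sf3b3, Sf1, Snrpf, Snrpb, Snrpa1 and Gemin8, and the falls were both joined Snrpn entries. The median log2 difference was 0.01 over the entries and 0.02 over all genes. The groups did not overlap for 16 entries (45.7%), against 31.9% of all genes.

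At 12 months 4 entries rose, 6 fell and 25 were not called. All 10 calls together made 28.6% of the entries, against 18.9% of all genes, with 11.2% higher and 7.71% lower. Sf3b3, Sf1, Sf3b1 and Snrpa1 rose, while the 3 Snrpn entries, Sf3b5, Sf3b4 and U2af2 fell. The 3 Snrpn entries describe 1 locus and are not independent. The groups did not overlap for 15 entries (42.9%), against 38.8% of all genes, and 10 entries (28.6%) separated the same way at both ages, against 16.0% of all genes. Those 10 were Sf3b3, Sf1, Snrpa1, Sf3b1 and Gemin8, higher, and the 3 Snrpn entries, Sf3b2 and U2af2, lower.

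Averaged over both ages, with 6 libraries per genotype, 5 entries rose and 6 fell. Together these 11 calls were 31.4% of the entries, against 25.0% of all genes, 15.5% higher and 9.54% lower. The 2 ages share no library, but the averaged contrast uses the same libraries as each age. The count of calls at 3 months was 4 on omission of wild-type replicate 2 or N40K replicate 3 of that age, 5 on omission of wild-type replicate 1 or N40K replicate 2, and 2 (Sf3b3 and Sf1) without the 3 libraries with Xist reads. At 12 months it was 6 without replicate 1 or replicate 2 of the N40K group. The calls among all genes dropped alike, at 3 months from 1596 to 797 and 892, to 1015 and 874, and to 137 under the same omissions, and at 12 months from 2632 to 1356 and 1418.

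**Figure D2:**
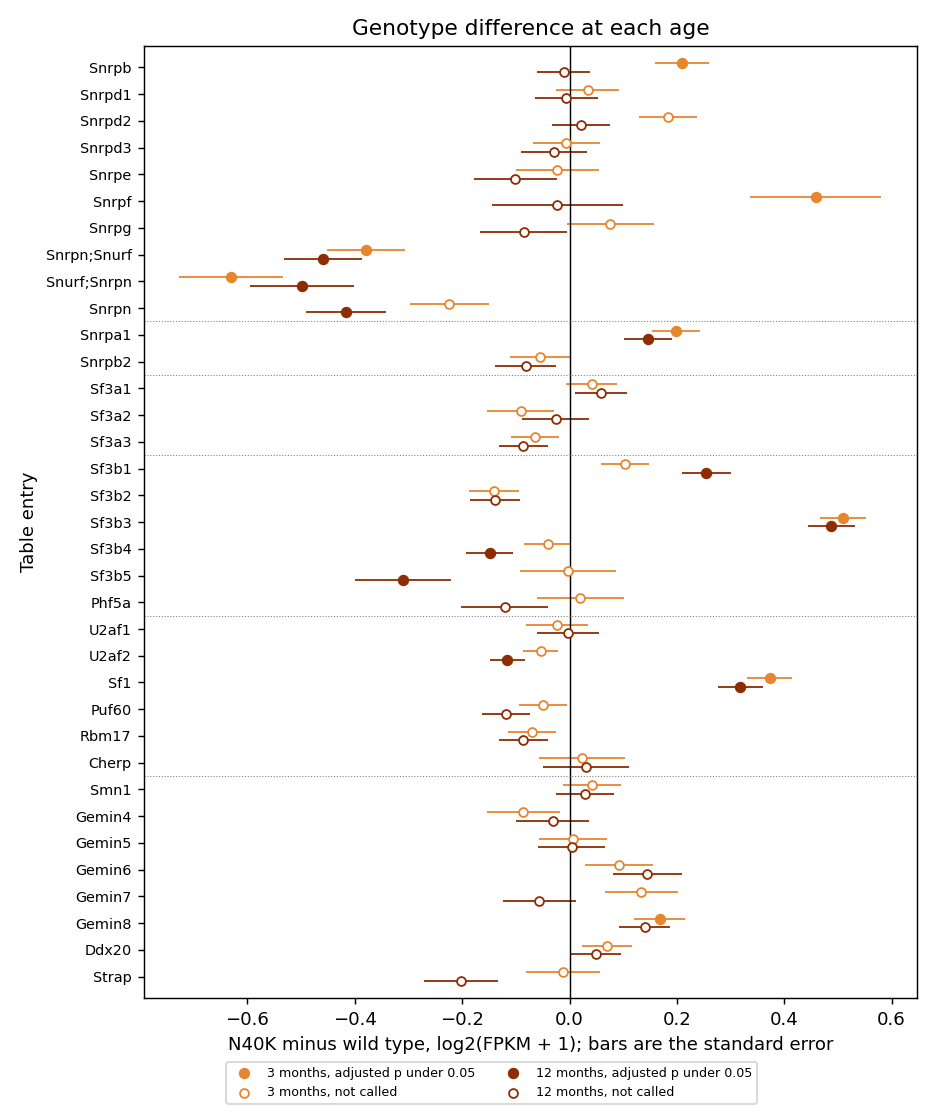
Difference between N40K and wild type in log2(FPKM + 1) for the 35 entries at 3 months (orange) and 12 months (brown), with standard errors from limma; filled points passed an adjusted p of 0.05. Sf3b3 and Sf1 lie to the right and the Snrpn entries to the left at both ages.

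SF3B is the U2 subcomplex that clamps the branch site, and the 6 of its genes that are members did not move as one: averaged over both ages 2 rose and 2 fell (33.3% each, against 15.5% and 9.54% of all genes) and 2 were not called. Sf3b3, which encodes a large scaffold subunit, measured 24.9, 26.2 and 26.4 FPKM in 3-month wild-type, 38.3, 36.4 and 36.8 in 3-month N40K, 26.8, 24.5 and 26.6 in 12-month wild-type and 37.6, 36.3 and 36.5 in 12-month N40K libraries. Every N40K library stood above every wild-type library of either age, and the ratio of means was 1.44 at 3 months and 1.42 at 12 months. The log2 difference was 0.51 ± 0.04 (SE) in young mice (limma adjusted p = 5.4e-05) and 0.49 ± 0.04 in old mice (adjusted p = 5.86e-05), and values after ± in log2 differences are standard errors throughout. Averaged over both ages it was 0.50 ± 0.03 (adjusted p = 1.63e-06), the 26th smallest p among 13945 genes. The call held under all 26 alternatives, with differences between 0.48 and 0.53. Cog4 overlaps 188 of its annotated exon bases on the opposite strand.

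Sf3b1, whose protein contacts the branch-site helix and is a frequent target of mutation in myelodysplastic syndromes, measured 56.5, 58.4 and 56.5 FPKM in 3-month wild-type, 62.8, 62.7 and 58.9 in 3-month N40K, 57.5, 51.9 and 56.02 in 12-month wild-type and 67.6, 66.03 and 64.3 in 12-month N40K libraries. The N40K libraries were above the wild-type ones at both ages, by a narrow margin at 3 months. The log2 difference at 3 months was 0.10 ± 0.04 and missed the threshold (limma adjusted p = 0.18), and at 12 months it was 0.26 ± 0.04 (adjusted p = 0.00364). Its difference between the ages was 0.15 ± 0.06 (limma adjusted p = 0.308), so a larger change at 12 months was not shown.

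Sf3b2, which binds SF3B4 and touches the RNA upstream of the branch site, went the other way. It measured 89.7, 89.2 and 91.5 FPKM in 3-month wild-type, 86.8, 78.1 and 80.2 in 3-month N40K, 80.1, 73.00 and 77.2 in 12-month wild-type and 67.9, 70.7 and 70.1 in 12-month N40K libraries. N40K libraries were below wild-type libraries at both ages, and the averaged log2 difference was -0.14 ± 0.03 (limma adjusted p = 0.0103), although neither age alone passed the threshold (adjusted p of 0.0794 and 0.0606). Quantile normalization moved the averaged value to -0.10 with an adjusted p of 0.108, and without the 3 libraries with Xist reads it was -0.13 with an adjusted p of 0.132.

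Sf3b4, the RNA-binding partner of SF3B2, measured 22.9, 22.00 and 21.3 FPKM in 3-month wild-type, 21.8, 21.1 and 21.3 in 3-month N40K, 16.5, 18.1 and 17.1 in 12-month wild-type and 15.02, 15.6 and 15.7 in 12-month N40K libraries. It fell at 12 months by 0.15 on the log2 scale (SE 0.04, limma adjusted p = 0.0356), where the groups did not overlap, and stood at -0.04 ± 0.04 at 3 months, where they did. That call ended without any one of 6 libraries, among them replicate 2 of the 12-month wild-type group (-0.11, adjusted p = 0.0985), and with Ttr as a covariate (-0.16, adjusted p = 0.0539). The others were replicate 2 of the 3-month wild-type group, replicate 3 of the 12-month wild-type group and each 12-month N40K library. The averaged difference of -0.10 ± 0.03 (adjusted p = 0.0431) lost its call under 14 of 26 alternatives. Of its 100-base windows 36.9% also lie in the transcript of Gm7935, so how reads were split between these genes is uncertain.

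Sf3b5, a small subunit of the complex, measured 26.5, 24.1 and 27.2 FPKM in 3-month wild-type, 24.4, 27.3 and 25.9 in 3-month N40K, 20.5, 24.9 and 18.6 in 12-month wild-type and 16.3, 16.5 and 17.96 in 12-month N40K libraries. It was not called at 3 months (-0.003 ± 0.09, limma adjusted p = 0.988) and fell by 0.31 at 12 months (SE 0.09, adjusted p = 0.0336). Replicate 2 of the 12-month wild-type group was the highest of its age. Without it the difference was -0.20 (adjusted p = 0.0853), and with Ttr as a covariate -0.27 (adjusted p = 0.0727). Omission of wild-type replicate 1 (adjusted p = 0.0506), N40K replicate 1 (adjusted p = 0.111) or N40K replicate 2 (adjusted p = 0.102) of that age ended the call as well. Phf5a, a zinc-finger subunit that sits in the branch-site pocket, measured 11.2, 10.2 and 10.2 FPKM in 3-month wild-type, 10.7, 10.3 and 11.1 in 3-month N40K, 9.12, 11.8 and 9.33 in 12-month wild-type and 8.86, 8.92 and 9.63 in 12-month N40K libraries, and was not called at either age.

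The SF3B subunit p14 (SF3B6), listed in the table as 0610009D07Rik, was not among the members and was singled out after its values were seen. It measured 32.9, 33.8 and 33.7 FPKM in 3-month wild-type, 34.3, 35.8 and 33.4 in 3-month N40K, 28.2, 32.7 and 28.99 in 12-month wild-type and 24.7, 26.4 and 26.03 in 12-month N40K libraries. It fell by 0.21 on the log2 scale at 12 months (SE 0.05, limma adjusted p = 0.0194), where the groups did not overlap, and stood at 0.04 ± 0.05 at 3 months, where they did.

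**Figure D3:**
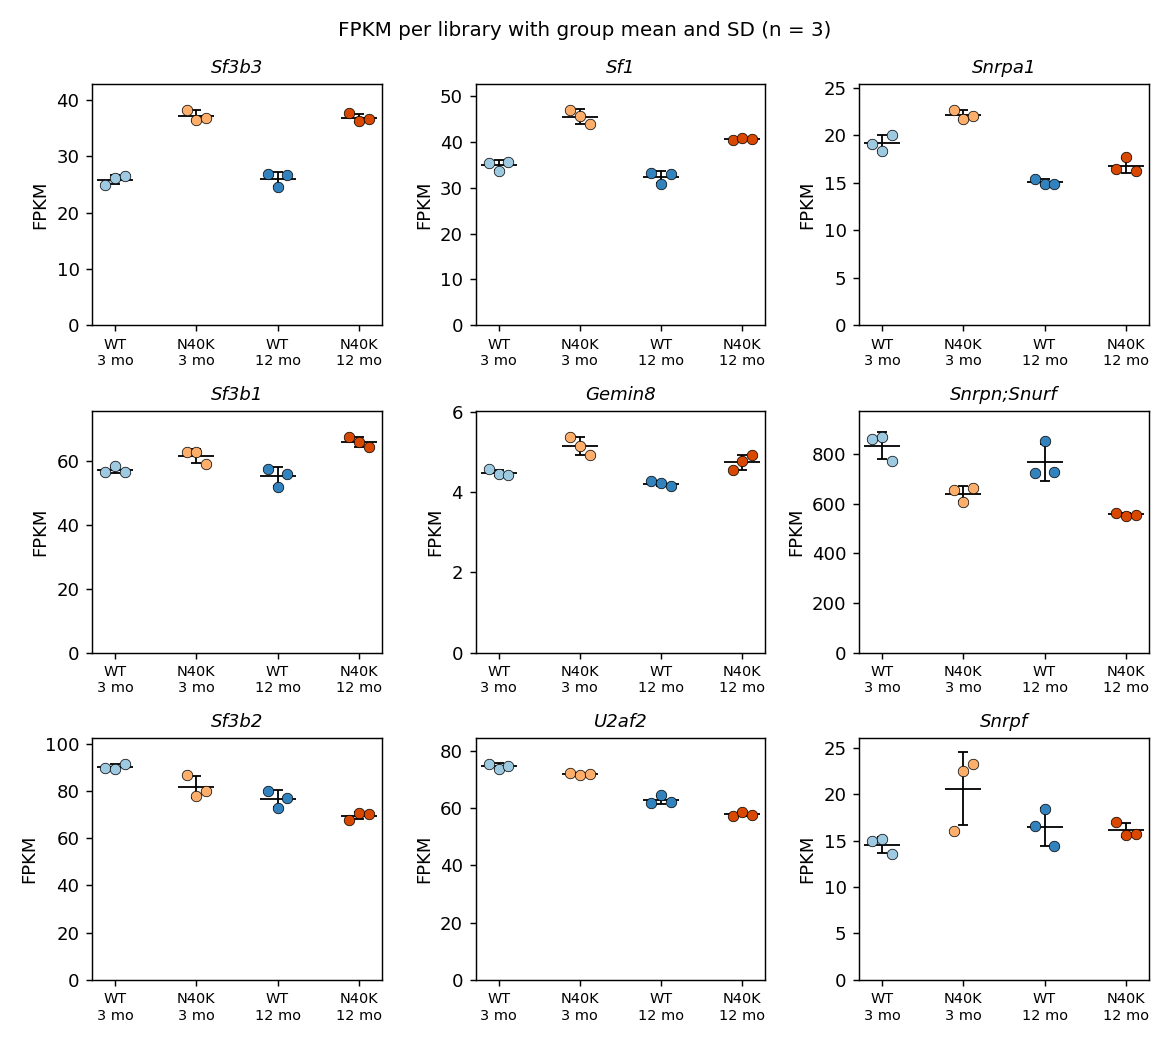
FPKM in each library (points) with the group mean and SD (bars, n = 3) for 9 entries, in wild-type (blue) and N40K (orange) mice at 3 and 12 months; each axis starts at 0. Sf3b3 sat at 36.3 FPKM or more in N40K and at 26.8 FPKM or less in wild type, and Snrpn;Snurf was lower in N40K at both ages.

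SF3A joins SF3B in the mature particle, and 0 of its 3 genes was called by limma in any genotype contrast, against 11.4% of all genes at 3 months, 18.9% at 12 months and 25.0% averaged. At an unadjusted p under 0.05 the count was 1, the averaged difference of Sf3a3. Sf3a1 measured 15.3, 15.1 and 15.9 FPKM in 3-month wild-type, 16.7, 15.4 and 15.7 in 3-month N40K, 13.5, 13.6 and 14.9 in 12-month wild-type and 14.3, 14.8 and 14.7 in 12-month N40K libraries. Sf3a2 measured 18.8, 19.4 and 18.6 FPKM in 3-month wild-type, 18.5, 18.5 and 16.2 in 3-month N40K, 14.3, 13.4 and 14.3 in 12-month wild-type and 12.5, 14.04 and 14.6 in 12-month N40K libraries. The Sf3a2 groups separated at 3 months, with N40K lower, and overlapped at 12 months. Sf3a3 measured 22.99, 24.7 and 23.2 FPKM in 3-month wild-type, 23.1, 22.4 and 22.1 in 3-month N40K, 19.8, 22.1 and 21.00 in 12-month wild-type and 19.5, 19.7 and 19.9 in 12-month N40K libraries. The averaged log2 differences were 0.05 ± 0.03, -0.06 ± 0.04 and -0.07 ± 0.03, each smaller than 0.1 either way.

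Snrpa1 and Snrpb2 encode the A' and B'' proteins of U2, the pair that binds the loop of U2 RNA. Snrpa1 was called and Snrpb2 was not, and the difference between them was not tested. Snrpa1 measured 19.1, 18.4 and 20.1 FPKM in 3-month wild-type, 22.7, 21.7 and 22.05 in 3-month N40K, 15.5, 14.9 and 14.9 in 12-month wild-type and 16.4, 17.7 and 16.2 in 12-month N40K libraries. N40K libraries exceeded wild-type libraries of the same age in all 6 cases, with log2 differences of 0.20 ± 0.04 at 3 months (limma adjusted p = 0.0175), 0.15 ± 0.04 at 12 months (adjusted p = 0.0446) and 0.17 ± 0.03 averaged (adjusted p = 0.00271). The averaged call held under all 26 alternatives. The call at 12 months ended under 17 of 27, among them the omission of any 1 library other than wild-type replicates 2 and 3 of the 3-month mice, with values from 0.11 to 0.17 over all 27. The call at 3 months was lost on omission of wild-type replicate 1 (0.20, adjusted p = 0.0524) or 2 (0.17, adjusted p = 0.0779), or of replicate 1 (0.18, adjusted p = 0.0535) or 3 (0.20, adjusted p = 0.0509) of the N40K group. It was also lost with the length trend removed (0.16, adjusted p = 0.0584) and without the libraries with Xist reads (0.21, adjusted p = 0.248). Snrpb2 measured 21.8, 23.8 and 21.5 FPKM in 3-month wild-type, 22.00, 20.7 and 21.7 in 3-month N40K, 20.5, 22.4 and 19.4 in 12-month wild-type and 20.04, 19.7 and 18.8 in 12-month N40K libraries, with overlapping groups at both ages and an averaged difference of -0.07 ± 0.04 (adjusted p = 0.24).

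Factors that mark the branch site and the end of the intron before U2 binds were led by Sf1, the branch-site binding protein. Sf1 measured 35.3, 33.7 and 35.7 FPKM in 3-month wild-type, 46.98, 45.6 and 43.8 in 3-month N40K, 33.2, 30.9 and 32.98 in 12-month wild-type and 40.3, 40.8 and 40.5 in 12-month N40K libraries. Every N40K library stood above every wild-type library, and the ratios of means were 1.30 and 1.25. The log2 differences were 0.37 ± 0.04 at 3 months (limma adjusted p = 0.000296) and 0.32 ± 0.04 at 12 months (adjusted p = 0.000646), and both calls held under all 27 alternatives. Gm14966, an antisense gene, overlaps 70 of its exon bases.

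The U2AF heterodimer, which SF1 binds, was not called higher at either age. U2af2, the large subunit that binds the polypyrimidine tract, measured 75.4, 73.5 and 74.8 FPKM in 3-month wild-type, 72.2, 71.4 and 71.8 in 3-month N40K, 61.9, 64.6 and 62.02 in 12-month wild-type and 57.3, 58.7 and 57.7 in 12-month N40K libraries. The groups separated at both ages with N40K lower, at -0.05 ± 0.03 at 3 months (limma adjusted p = 0.336) and -0.12 ± 0.03 at 12 months (adjusted p = 0.0296). The 12-month call ended with Ttr as a covariate (-0.12, adjusted p = 0.0624), under quantile normalization (-0.08, adjusted p = 0.109), without replicate 2 of the 12-month wild-type group (-0.10, adjusted p = 0.0566) and without replicate 1 (-0.11, adjusted p = 0.104), 2 (-0.13, adjusted p = 0.0652) or 3 (-0.11, adjusted p = 0.0792) of the 12-month N40K group. That call ended under 10 of 27 alternatives in all, among them the replicate block (adjusted p = 0.0557) and each age fitted alone (adjusted p = 0.116). The averaged difference was -0.09 ± 0.02 (adjusted p = 0.0192) and missed the threshold without replicate 1 of the 12-month N40K group (-0.08, adjusted p = 0.0505), under quantile normalization (-0.06, adjusted p = 0.0553), without the libraries with the most Ttr (-0.08, adjusted p = 0.0862) and without those with Xist reads (-0.09, adjusted p = 0.134). U2af1, the small subunit that reads the AG at the end of the intron, measured 46.2, 44.4 and 43.3 FPKM in 3-month wild-type, 44.7, 40.8 and 46.4 in 3-month N40K, 36.9, 35.4 and 33.8 in 12-month wild-type and 36.03, 36.99 and 32.9 in 12-month N40K libraries, with overlapping groups. Of its 100-base windows 49.5% also lie in Gm10232, AC102268.2 or Gm18959.

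Puf60, a relative of U2AF2 that also binds pyrimidine tracts, measured 74.5, 74.1 and 74.3 FPKM in 3-month wild-type, 73.1, 70.6 and 71.6 in 3-month N40K, 58.96, 63.4 and 58.7 in 12-month wild-type and 52.97, 54.9 and 58.7 in 12-month N40K libraries. Rbm17 (SPF45) measured 36.4, 34.9 and 35.8 FPKM in 3-month wild-type, 35.6, 34.8 and 31.6 in 3-month N40K, 31.8, 32.1 and 30.6 in 12-month wild-type and 29.3, 29.6 and 29.9 in 12-month N40K libraries. Both were slightly lower in N40K, with averaged differences of -0.08 ± 0.03 and -0.08 ± 0.03 that missed the threshold (limma adjusted p of 0.0742 and 0.0977). Cherp, a U2-associated protein, measured 19.7, 18.3 and 19.6 FPKM in 3-month wild-type, 20.1, 18.9 and 19.6 in 3-month N40K, 17.2, 13.1 and 16.7 in 12-month wild-type and 16.3, 16.00 and 15.5 in 12-month N40K libraries. Its groups overlapped at both ages, and replicate 2 of the 12-month wild-type group was the lowest of the 12 libraries.

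The Sm core held the largest falls, and all came from Snrpn. In the main joined entry, Snrpn;Snurf, the libraries measured 861, 871 and 773 FPKM in 3-month wild-type, 654, 606 and 664 in 3-month N40K, 725, 855 and 727 in 12-month wild-type and 563, 552 and 557 in 12-month N40K libraries. N40K libraries lay below wild-type libraries of either age, and the ratio of means was 0.77 at 3 months and 0.72 at 12 months. The log2 differences were -0.38 ± 0.07 (limma adjusted p = 0.00708) and -0.46 ± 0.07 (adjusted p = 0.00194), and the averaged call held under all 26 alternatives with values from -0.45 to -0.34. Without the 3 libraries with Xist reads, which left 1 wild-type library at 3 months, the 3-month difference was -0.45 with an adjusted p of 0.125.

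The other Snrpn entries were lower too. Snurf;Snrpn measured 23.4, 23.4 and 23.7 FPKM in 3-month wild-type, 14.6, 13.9 and 16.1 in 3-month N40K, 13.1, 16.02 and 15.2 in 12-month wild-type and 10.6, 11.4 and 8.48 in 12-month N40K libraries, with log2 differences of -0.63 ± 0.10 and -0.50 ± 0.10 (limma adjusted p of 0.0024 and 0.00587). Without the libraries with Xist reads its 3-month difference was -0.68 (adjusted p = 0.106). The Snrpn entry measured 79.03, 75.8 and 68.5 FPKM in 3-month wild-type, 60.3, 64.9 and 65.4 in 3-month N40K, 83.6, 87.96 and 72.3 in 12-month wild-type and 58.1, 60.7 and 62.8 in 12-month N40K libraries, at -0.42 ± 0.07 at 12 months (adjusted p = 0.00364) and -0.22 ± 0.07 at 3 months, where the groups separated but the adjusted p was 0.0753. Snurf is the upstream reading frame of the same transcript, so the table's split of its reads is uncertain. Of 7 neuronal markers 4 (57.1%, against 9.54% of all genes) fell averaged over both ages, Slc17a7, Rbfox3, Camk2a and Snap25, and the median of the 7 was -0.16. The other 3 were not called (Syt1 at -0.10 ± 0.04, Nrgn at 0.03 ± 0.07 and Gad1 at 0.04 ± 0.06), and at 3 months 0 of 7 were called. Among markers of other cells, the averaged median of 5 oligodendrocyte markers was also -0.16, with 0 called, against 25.0% of all genes. Of 5 endothelial markers 2 rose at 12 months (40%, against 11.2% of all genes), Slco1a4 by 0.62 ± 0.08 and Flt1 by 0.32 ± 0.07. Averaged over both ages 1 of the 5 rose, 20% against 15.5%. Of 5 microglial markers 1 fell at 12 months (20%, against 7.71%), Tmem119 at -0.24 ± 0.07, and 0 were called averaged. The summed neuronal markers ran from 2890 to 3228 FPKM in 3-month wild type, 2748 to 3012 in 3-month N40K, 2924 to 3154 in 12-month wild type and 2661 to 2751 in 12-month N40K libraries. The part of these markers in the Snrpn result was not tested, and in whole tissue fewer cells of a type and less RNA per cell cannot be told apart.

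Snrpb, which encodes SmB, the protein whose place SmN takes, measured 72.96, 65.4 and 70.5 FPKM in 3-month wild-type, 77.8, 82.4 and 81.8 in 3-month N40K, 57.4, 58.5 and 54.96 in 12-month wild-type and 54.5, 55.8 and 59.4 in 12-month N40K libraries. It rose at 3 months by 0.21 ± 0.05 (limma adjusted p = 0.0221) and was at -0.01 ± 0.05 at 12 months, where the groups overlapped. The 3-month call was lost when wild-type replicate 2 was omitted (0.17, adjusted p = 0.0899), or replicate 2 (0.20, adjusted p = 0.0795) or 3 (0.20, adjusted p = 0.0753) of the N40K group. It also ended with Xist as a covariate (0.20, adjusted p = 0.052), and without the 3 libraries with Xist reads the value was 0.13 (adjusted p = 0.48). Snrpb and Snrpn share no 100-base window in their longest transcripts, so no stretch of that size is common to those transcripts.

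The level of Snrpn;Snurf relative to Snrpb, both in FPKM, was 11.8, 13.3 and 10.96 in 3-month wild-type and 8.42, 7.35 and 8.12 in 3-month N40K libraries. The older wild-type libraries stood at 12.6, 14.6 and 13.2, and the older N40K libraries at 10.3, 9.90 and 9.38. The N40K values lay below the wild-type values at both ages; the pair was chosen after its values were seen, so no test is given.

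Snrpf, which encodes SmF, measured 14.9, 15.1 and 13.6 FPKM in 3-month wild-type, 16.05, 22.5 and 23.3 in 3-month N40K, 16.6, 18.4 and 14.4 in 12-month wild-type and 16.97, 15.6 and 15.7 in 12-month N40K libraries. Replicates 2 and 3 of the 3-month N40K group were the highest, and replicate 1 lay close to wild type. The log2 difference at 3 months was 0.46 ± 0.12 (limma adjusted p = 0.0342), a call that ended without any 1 of the 3 wild-type libraries of that age (adjusted p = 0.0729 for replicate 1, 0.0774 for replicate 2 and 0.10 for replicate 3), without replicate 2 (0.39, adjusted p = 0.123) or 3 (0.37, adjusted p = 0.122) of the N40K group, or without replicate 2 of the 12-month N40K group (0.46, adjusted p = 0.0517). The call ended under 11 of 27 alternatives in all, among them no filter (adjusted p = 0.0588), median-ratio scaling (adjusted p = 0.0506) and each age fitted alone (adjusted p = 0.0765). At 12 months the difference was -0.02 ± 0.12. Of its 100-base windows 78.3% also lie in other genes, chiefly Ccdc38 on the opposite strand, and the strand setting of the counting was not given, so this value is uncertain.

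The other Sm genes showed no call for genotype. Snrpd2 measured 82.9, 81.5 and 77.2 FPKM in 3-month wild-type, 86.9, 95.01 and 93.1 in 3-month N40K, 67.5, 76.00 and 69.9 in 12-month wild-type and 69.1, 72.5 and 74.8 in 12-month N40K libraries. At 3 months its groups did not overlap, and its difference of 0.18 ± 0.05 just missed the threshold (limma adjusted p = 0.0506). Snrpd1 measured 44.00, 44.8 and 42.9 FPKM in 3-month wild-type, 44.03, 47.8 and 43.2 in 3-month N40K, 41.03, 48.8 and 43.96 in 12-month wild-type and 45.2, 44.1 and 43.7 in 12-month N40K libraries. Snrpd3 measured 78.8, 77.1 and 76.1 FPKM in 3-month wild-type, 81.3, 79.8 and 70.3 in 3-month N40K, 67.5, 77.8 and 69.7 in 12-month wild-type and 71.8, 68.6 and 69.8 in 12-month N40K libraries. Snrpd1 and Snrpd3 encode SmD1 and SmD3, and their groups overlapped at both ages.

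Snrpe, for SmE, measured 43.2, 45.7 and 44.3 FPKM in 3-month wild-type, 43.7, 45.4 and 41.9 in 3-month N40K, 32.9, 42.5 and 37.2 in 12-month wild-type and 33.3, 37.1 and 33.8 in 12-month N40K libraries. Snrpg, for SmG, measured 27.8, 32.2 and 29.8 FPKM in 3-month wild-type, 29.9, 32.96 and 31.9 in 3-month N40K, 24.3, 29.9 and 24.1 in 12-month wild-type and 25.3, 24.98 and 23.1 in 12-month N40K libraries. In both, replicate 2 of the 12-month wild-type group was the highest of its age, and the averaged differences were -0.06 ± 0.06 and -0.01 ± 0.06.

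Of the 8 SMN complex genes that are members, 1 (12.5%) was called at 3 months and averaged over both ages, against 11.4% and 25.0% of all genes, and 0 of 8 at 12 months, against 18.9%. Gemin2 was not a member and was counted with the assembly genes below. Its groups overlapped at 3 months and separated at 12 months, with N40K lower (-0.16 ± 0.06, limma adjusted p = 0.0833, not called). Gemin8, which links Gemin6 and Gemin7 to SMN, measured 4.56, 4.44 and 4.41 FPKM in 3-month wild-type, 5.37, 5.15 and 4.92 in 3-month N40K, 4.28, 4.21 and 4.14 in 12-month wild-type and 4.55, 4.76 and 4.92 in 12-month N40K libraries. N40K libraries exceeded wild-type libraries of the same age throughout. The averaged log2 difference was 0.15 ± 0.03 (limma adjusted p = 0.0059), with 0.17 ± 0.05 at 3 months (adjusted p = 0.0403) and 0.14 ± 0.05 at 12 months (adjusted p = 0.0566). The averaged value was 0.10 under quantile normalization (adjusted p = 0.0727) and 0.16 without the libraries with Xist reads (adjusted p = 0.066). The 3-month call ended under 19 of 26 alternatives, among them the omission of any 1 library other than wild-type replicates 1 and 2 of the 12-month mice, with values from 0.12 to 0.20 over all 26.

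Smn1, the central subunit, measured 10.5, 11.7 and 10.2 FPKM in 3-month wild-type, 11.4, 10.4 and 11.6 in 3-month N40K, 9.56, 9.47 and 9.25 in 12-month wild-type and 9.44, 9.81 and 9.64 in 12-month N40K libraries, and its groups overlapped at both ages. Gemin4 measured 4.59, 5.38 and 5.03 FPKM in 3-month wild-type, 4.95, 4.35 and 4.65 in 3-month N40K, 4.73, 4.44 and 5.15 in 12-month wild-type and 4.49, 4.94 and 4.51 in 12-month N40K libraries, but 94.6% of its 100-base windows also lie in other genes, chiefly Glod4 and Fam57a. Gemin5, which recognises the snRNA, measured 4.06, 4.61 and 4.20 FPKM in 3-month wild-type, 4.49, 4.01 and 4.44 in 3-month N40K, 4.80, 4.31 and 4.95 in 12-month wild-type and 4.83, 4.46 and 4.80 in 12-month N40K libraries. Gemin4 and Gemin5 differed between genotypes by no more than 0.09 on the log2 scale at either age.

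Gemin6 measured 3.65, 3.30 and 3.39 FPKM in 3-month wild-type, 3.56, 3.83 and 3.83 in 3-month N40K, 2.63, 3.22 and 3.07 in 12-month wild-type and 3.34, 3.30 and 3.52 in 12-month N40K libraries. Its groups separated at 12 months, at 0.14 ± 0.06 without passing the test (limma adjusted p = 0.134). Gemin7 measured 15.2, 14.5 and 13.95 FPKM in 3-month wild-type, 14.9, 17.7 and 15.8 in 3-month N40K, 13.8, 14.3 and 12.4 in 12-month wild-type and 12.5, 12.8 and 13.5 in 12-month N40K libraries. Ddx20, the DEAD-box helicase also called Gemin3, measured 4.93, 4.91 and 4.71 FPKM in 3-month wild-type, 5.31, 5.10 and 5.02 in 3-month N40K, 4.37, 4.60 and 4.82 in 12-month wild-type and 4.67, 4.80 and 4.90 in 12-month N40K libraries, with separate groups at 3 months and a difference of 0.07 ± 0.05 (adjusted p = 0.395).

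Strap, the WD-repeat protein also called Unrip, measured 47.2, 49.96 and 47.2 FPKM in 3-month wild-type, 48.1, 45.98 and 48.99 in 3-month N40K, 42.6, 53.1 and 44.5 in 12-month wild-type and 39.3, 40.04 and 41.5 in 12-month N40K libraries. It separated the genotypes at 12 months, where N40K was lower (log2 difference -0.20 ± 0.07, limma adjusted p = 0.0597, not called). Replicate 2 of the 12-month wild-type group was the highest of the 12 libraries.

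Whether the N40K difference itself changed between the ages was tested by the interaction. Limma called 0 of 35 entries, against 0.0645% of all genes. An unadjusted p under 0.05 was found for 4 of 35 entries (11.4%), against 14.3% of all genes: Snrpb (-0.22 ± 0.07), Snrpf (-0.48 ± 0.17), Sf3b5 (-0.31 ± 0.13) and Sf3b1 (0.15 ± 0.06). Without replicate 1 of the 3-month N40K group Snrpf alone among the entries passed, at -0.64 with a limma adjusted p of 0.0305. Calls among all genes then went from 9 to 162. A difference between the ages was thus not shown for any entry with all libraries in the fit.

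Age was compared over both genotypes, 6 libraries against 6. Of the 35 entries 26 fell (74.3%) and 0 rose, against 42.9% of all genes lower and 17.7% higher, by limma with the same threshold. The median was -0.18 over the entries and -0.09 over all genes. The falls were led by Snurf;Snrpn (-0.58 ± 0.07), Sf3b5 (-0.43 ± 0.06), Snrpb (-0.40 ± 0.04), Sf3b4 (-0.39 ± 0.03), Sf3a2 (-0.38 ± 0.04) and Snrpa1 (-0.35 ± 0.03). Snurf;Snrpn is a low entry of the Snrpn locus, and the split of reads between the entries of that locus is uncertain. The main entry, Snrpn;Snurf, moved by only -0.16 with age and kept its call under 20 of 26 alternatives. All 6 branch-site and intron-end factors fell, with Puf60 at -0.33 ± 0.03, U2af1 at -0.32 ± 0.04, Cherp at -0.28 ± 0.06, U2af2 at -0.27 ± 0.02, Rbm17 at -0.18 ± 0.03 and Sf1 at -0.13 ± 0.03, although Sf1 stood at 0.03 with the GC trend removed and Rbm17 at 0.01 with the length trend removed. Sf3b1 (0.03 ± 0.03), Sf3b3 (-0.003 ± 0.03), Snrpd1 (0.000 ± 0.04) and Snrpn (0.03 ± 0.05) were among the 9 entries not called.

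This count depended on scaling. FPKM sums were 343393 to 350760 at 3 months and 309358 to 332941 at 12 months. All genes shifted too: 8452 were called without scaling, 29.1% of them higher, and 7610 (48.7% higher) after median-ratio scaling. Quantile normalization called 7735 genes (45.8% higher), removal of the length trend 6914 (49.3% higher), and removal of the GC trend 7070 (48.5% higher). Among the entries, under median-ratio scaling 16 fell and 3 rose, under quantile normalization 16 fell and 5 rose, with the trend against transcript length removed 12 fell and 3 rose, and with the GC trend removed 19 fell and 1 rose. With the length trend removed, 11 entries called before or after the removal changed sign, among them Snrpd1 (0.20) and Gemin8 (0.10), both then called higher. Snrpb, Snrpa1, Sf3b2, Sf3b4, Sf3b5, U2af2, Puf60 and Snurf;Snrpn kept their call under all 26 alternatives. All 3 libraries with Xist reads were young, and the library names follow a separate numbering at each age, so age cannot be told apart from these. Without the 3 libraries with Xist reads, which left 1 wild-type library at 3 months, the median over all genes was -0.08, against -0.09 with all libraries.

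**Figure D4:**
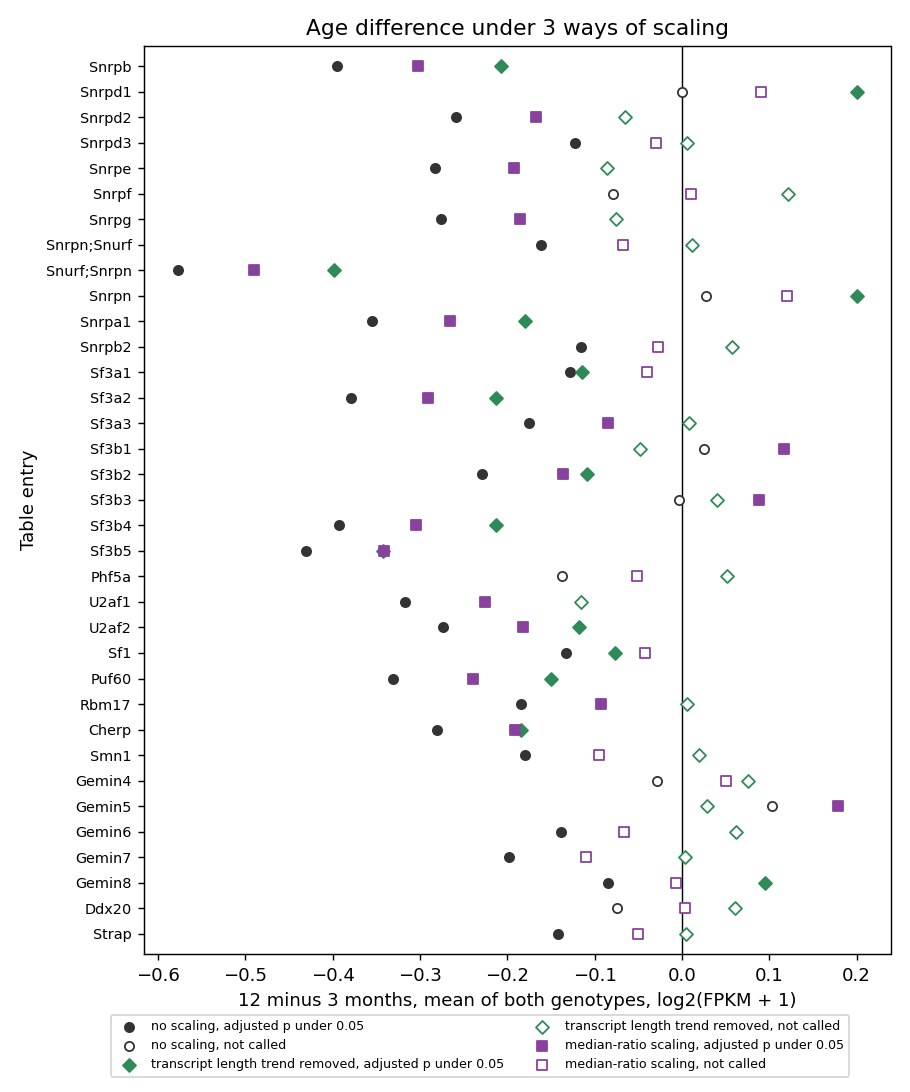
Difference between 12 and 3 months in log2(FPKM + 1), averaged over the genotypes, for the 35 entries without scaling (black), with median-ratio scaling (purple) and with each library's trend against transcript length removed (green); filled points passed an adjusted p of 0.05. Black points lie mostly left of 0, with 26 called lower, and green points lie nearer to 0, with 12 called lower and 3 higher.

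Other genes of the pathway were taken from lists that held no member. Of 20 further U2 and branch-site factors, 3 rose (15%) and 4 fell (20%) averaged over both ages, against 15.5% and 9.54% of all genes. Dnajc8, which encodes a spliceosome-associated DnaJ protein, measured 57.8, 59.7 and 58.6 FPKM in 3-month wild-type, 42.5, 40.9 and 40.3 in 3-month N40K, 53.8, 56.9 and 54.8 in 12-month wild-type and 35.96, 38.4 and 37.6 in 12-month N40K libraries. Its N40K libraries lay below all wild-type libraries, with an averaged log2 difference of -0.53 ± 0.03 (limma adjusted p = 4.65e-07). U2surp, a U2-associated SR-related protein, measured 11.3, 12.1 and 12.00 FPKM in 3-month wild-type, 14.8, 14.1 and 13.5 in 3-month N40K, 12.3, 11.8 and 12.6 in 12-month wild-type and 17.6, 16.6 and 16.01 in 12-month N40K libraries, higher by 0.33 ± 0.04 (adjusted p = 7.13e-05). The RNA helicase gene Ddx39b, whose product UAP56 acts with U2AF, was higher by 0.21 ± 0.03 (adjusted p = 0.000314), and its paralogue Ddx39, which overlaps Adgre5, by 0.23 ± 0.04 (adjusted p = 0.000974).

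Among 15 genes for Sm methylation, snRNP assembly, import and Cajal bodies, 1 rose and 1 fell averaged over both ages, 6.67% each way, against 15.5% and 9.54% of all genes. Snupn, the import adaptor for snRNPs, measured 8.37, 8.42 and 8.27 FPKM in 3-month wild-type, 6.97, 6.66 and 7.89 in 3-month N40K, 7.55, 8.56 and 8.37 in 12-month wild-type and 5.80, 6.78 and 7.54 in 12-month N40K libraries, with an averaged difference of -0.23 ± 0.06 (limma adjusted p = 0.0152). Wrap53, a Cajal body protein, was higher by 0.09 ± 0.03 (adjusted p = 0.0468), and Phax (-0.09 ± 0.03) and Ncbp1 (0.09 ± 0.03) were not called averaged over both ages. Neither Snupn (limma adjusted p of 0.155 at 3 months and 0.0515 at 12 months) nor Wrap53 (0.262 and 0.123) passed at either age alone. Of 12 Sm-like genes 1 rose (8.33%, against 15.5% of all genes) and 0 fell. This was Lsm4, at 23.2, 21.2 and 22.96 FPKM in 3-month wild-type, 25.4, 29.6 and 30.98 in 3-month N40K, 21.1, 21.99 and 19.5 in 12-month wild-type and 22.8, 22.6 and 22.3 in 12-month N40K libraries, with an averaged difference of 0.22 ± 0.05 (adjusted p = 0.0067). Lsm4 was called at 3 months (0.33 ± 0.07, limma adjusted p = 0.0102) and not at 12 months (0.11 ± 0.07, adjusted p = 0.293). Lsm7 (0.14 ± 0.05), Lsm14b (-0.07 ± 0.03) and Lsm11 (0.12 ± 0.06) were not called. The medians of the 3 lists were -0.01, 0.03 and 0.02, against 0.01 over all genes.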

How the data were processed

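Poly-A RNA from 12 hippocampus libraries was sequenced as paired reads, per the labels' protocols. Per the submitters' processing notes, STAR, BWA and CASAVA were used with the mouse build mm9; their roles are not given there. The values used were the deposited FPKM per gene; the counting tool, its annotation and its strand setting are not given in the sources used here. The 13945 genes that reached 1 FPKM in 3 or more libraries were tested on log2(FPKM + 1), a scale that understates changes of low genes, with limma 3.58.1 in R 4.3.3: 1 mean per group, all 12 libraries in 1 fit, moderated with a trend, two-sided, Benjamini-Hochberg adjustment over all genes tested, threshold 0.05. The fit was tested on simulated data.

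The members and gene lists were chosen with earlier results of these data known. Library values were to be given for members called in any contrast, with up to 4 genes per further pathway list named by smallest p for the averaged genotype difference; the uncalled members' values are given as well. Alternatives changed the pseudocount, filter, scaling, length or GC trend, covariates, replicate block, moderation, the ages fitted and each library; omission of the libraries with the most Ttr or with Xist reads was chosen after seeing the data. A sign change between values that both miss the threshold was not counted as a reversal. Overlaps, 100-base windows, lengths and GC came from GENCODE M21, in which 98.6% of the 23352 rows had a match, and no coordinates were taken from it. Depth was read from the steps between values of olfactory receptor genes, where 52.5% to 68.3% of values came out whole within 0.02, so it is approximate. Lsm8 was not analysed here.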

Additional observations from a re-analysis of the deposited data

How the results depend on the processing

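Counts of entries called are given for settings that moved them by more than 1.5 times, and as ranges over the omission of any 1 library. The counts among all genes are in brackets. Omission of the libraries with Xist reads left 1 wild-type library at 3 months. It also lowered the count of entries by more than 1.5 times at each age and averaged, and its counts are left out here. The ranges averaged over ages and for age stayed within 1.5 times. At 3 months (8 called) leaving out 1 library gave 4 to 11, leaving out the libraries with the most Ttr gave 5, and leaving out those with Xist reads gave 2. At 12 months (10 called, 2632 of all genes) the count was 6 with Ttr as a covariate (2319) and 6 with each age fitted alone (1499). It was 6 to 10 without 1 library (1356 to 2607). Averaged over ages (11 called, 3493 of all genes) it was 9 to 13 without 1 library (2732 to 3480). The interaction (0 called, 9 of all genes) gave 0 to 1 without 1 library (0 to 162). For age (26 called, 8452 of all genes) it was 15 with the length trend removed (6914) and 23 to 27 without 1 library (7900 to 8698).

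Replicate numbers did not pair the libraries: same-numbered deviations correlated between -0.456 and 0.197. With the replicate block 7 entries were called at 3 months, 6 at 12 months, 10 averaged, 0 for the interaction and 25 for age. Among all genes the block called 1310, 2343, 3286, 0 and 8375 in the same order, against 1596, 2632, 3493, 9 and 8452 without it.

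Scaling moved the share of higher calls among all genes at 3 months from 69.5% to 53.5% (median-ratio), 54.4% (quantile), 54.2% (length trend) and 53.2% (GC trend), where the entries split into 4 higher and 3 lower, 6 and 3, 4 and 4, and 6 and 3. Averaged over ages it moved from 61.9% to 53.3% (median-ratio), 49.8% (quantile), 51.6% (length trend) and 51.5% (GC trend), with entries at 5 and 8, 6 and 4, 7 and 7, and 5 and 9. For age it moved from 29.1% to 48.7%, 45.8%, 49.3% and 48.5% under the same 4 settings.

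Reversals, meaning a changed sign with a call before or after, occurred in the age comparison alone. Snrpd1 (0.000) and Sf3b3 (-0.003) stood at about 0 in the main fit, and several of the new values lie near 0. A changed sign is thus not by itself an opposite effect. With the length trend removed the differences were 0.20 for Snrpd1, 0.006 for Snrpd3, 0.012 for Snrpn;Snurf, 0.057 for Snrpb2, 0.008 for Sf3a3, 0.006 for Rbm17, 0.019 for Smn1, 0.062 for Gemin6, 0.003 for Gemin7, 0.095 for Gemin8 and 0.005 for Strap. Quantile normalization gave 0.107 for Snrpd1, 0.005 for Snrpd3 and 0.102 for Sf3b3, median-ratio scaling gave 0.088 for Sf3b3, and removal of the GC trend gave 0.033 for Sf1 and 0.039 for Gemin7. The causes were not tested.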
